A study of Arabidopsis thaliana with 12 samples.

Results

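The genes described are 10 seed genes of Arabidopsis thaliana, chosen by identifier from the 23893 genes of the deposited table. They comprise 3 cruciferins (CRU1, AT5G44120; CRU2, AT1G03880; CRU3, AT4G28520), 5 albumins of the 2S class (SESA1 to SESA5) and 2 oleosins (OLEO1, AT4G25140; OLEO2, AT5G40420). The choice was made with their values in these libraries known, so their levels and differences are given as a description, without a test. RNA from whole seedlings aged 7 days, kept at 21 °C in short days, was sequenced in 12 libraries, 3 for each of 4 genotypes. Besides the wild type Col, they are h3.3kd (labelled h3.3kd-1), in which histone variant H3.3 is knocked down, h2a.z, in which histone variant H2A.Z is mutated, and h3.3kd;h2a.z, the double mutant with both defects. The sources used here give neither the alleles nor the knockdown construct. Nothing says that the libraries of a genotype are of separately grown plants, and the p-values below then measure the spread between libraries and no more. In whole seedlings, fewer cells that make a transcript and less transcript per cell cannot be told apart.

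Cruciferins are legumin-type globulins and the SESA genes encode small sulphur-rich albumins, and both fill the protein storage vacuoles of the maturing embryo. Oleosins coat the oil bodies of the seed and keep them from fusing. Their genes are switched on during seed maturation by the B3-domain factors LEC2, FUS3 and ABI3, which bind the RY element, together with bZIP factors that bind ACGT-containing elements. After germination the stored protein and oil are used up and the genes are silenced, with Polycomb proteins, the chromatin remodeller PKL and the VAL repressors known to take part.

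The sequence before the annotated start of each gene was searched for the elements named above, and 5 of the 10 windows are shown because they belong to the genes with the highest levels (CRU1, CRU3, SESA5, SESA2) and to SESA4, which stayed low beside them. Each window is 250 bases long, taken from the RefSeq assembly TAIR10.1 and written 5′ to 3′ on the strand of the gene. The windows are chr5:17758337-17758586 (minus strand) for CRU1, chr4:14087306-14087555 (plus strand) for CRU3, chr5:22239188-22239437 (minus strand) for SESA5, chr4:13609091-13609340 (plus strand) for SESA2 and chr4:13613346-13613595 (plus strand) for SESA4. Capitals mark the RY core CATGCA, the G-box CACGTG and the shorter ACGTG, on either strand.
CRU1: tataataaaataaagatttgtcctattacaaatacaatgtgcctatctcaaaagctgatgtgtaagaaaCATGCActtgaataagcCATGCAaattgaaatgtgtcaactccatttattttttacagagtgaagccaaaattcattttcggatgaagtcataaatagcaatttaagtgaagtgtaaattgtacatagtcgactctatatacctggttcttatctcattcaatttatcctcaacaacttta
CRU3: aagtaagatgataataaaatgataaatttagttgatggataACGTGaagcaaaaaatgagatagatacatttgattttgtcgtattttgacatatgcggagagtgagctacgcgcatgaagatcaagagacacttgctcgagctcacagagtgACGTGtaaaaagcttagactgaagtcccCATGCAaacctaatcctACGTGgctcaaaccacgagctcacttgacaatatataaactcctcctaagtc
SESA5: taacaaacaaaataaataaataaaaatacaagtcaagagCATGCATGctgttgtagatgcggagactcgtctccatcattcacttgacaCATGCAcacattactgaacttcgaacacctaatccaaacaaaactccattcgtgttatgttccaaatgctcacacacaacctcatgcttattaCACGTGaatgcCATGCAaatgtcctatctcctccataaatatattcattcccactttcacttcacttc
SESA2: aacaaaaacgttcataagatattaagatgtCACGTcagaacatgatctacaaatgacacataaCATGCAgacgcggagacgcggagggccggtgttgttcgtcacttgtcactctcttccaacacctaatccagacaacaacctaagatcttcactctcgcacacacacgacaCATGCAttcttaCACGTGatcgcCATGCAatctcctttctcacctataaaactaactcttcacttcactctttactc
SESA4: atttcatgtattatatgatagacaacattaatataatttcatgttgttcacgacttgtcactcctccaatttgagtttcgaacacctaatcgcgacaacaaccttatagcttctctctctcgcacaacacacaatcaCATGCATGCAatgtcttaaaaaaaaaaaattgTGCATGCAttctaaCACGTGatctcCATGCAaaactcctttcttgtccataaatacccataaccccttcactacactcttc
The RY core was present in 9 of the 10 windows, against 8.41% of the 23738 windows of all genes with an annotated start, and CRU2 had none. At least 2 RY cores were present in 8 of the 10, against 1.65% of all windows. The G-box was present in 6 of the 10, against 7.09% of all windows, and ACGTG, which every G-box contains, in 7 of the 10, against 23.8%. CRU1, CRU2 and OLEO2 held neither of the latter. These elements were not particular to the 10 genes. Among the related genes described further on, the RY core was present before 100% of other oil body genes and 57.1% of other storage globulins. It was present before 28.6% of late embryogenesis abundant and desiccation genes, which had the G-box in 66.7% and ACGTG in 90.5%. In the remaining lists the RY core was present in 0% to 30.0%. SESA4, which stayed low, held 6 matches to the RY core, some overlapping, and a G-box in this window. CRU2, which was also low, held none of these elements. Whether they bear on the levels was not tested.

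The values are TPM, abundance per gene length scaled to 1000000 per library, and the reads behind them could be recovered because nearly all values are whole multiples of 1 read. The length used by the authors was the gene span with introns, so genes with introns (the cruciferins and oleosins) are understated relative to the SESA genes, which have none. Depth was 21542980 to 33255750 recovered reads a library, apart from 5734531 in h2a.z replicate 1. HTR4 and HTR8, which encode H3.3, had at most 0.101 times the level of the genotype without the knockdown in h3.3kd and the double mutant, and the H2A.Z genes HTA8 and HTA11 at most 0.117 times the Col level in the h2a.z lines. HTR5, the remaining H3.3 gene, kept 207 TPM of 250 in h3.3kd, and HTA9 kept 32.8 TPM of 161 in h2a.z seedlings. In the double mutant HTA9 had 60.5 TPM, above h2a.z without overlap, and HTA11 had 1.69 TPM against 2.86 in h2a.z. The H2A.Z transcripts were thus not reduced equally in h2a.z and the double mutant. Shoot marker transcripts were abundant in every library (58100 to 89300 TPM summed over 4 genes), and flower and pollen markers summed to at most 1.51 TPM over the 5 genes analysed.

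The summed TPM of the 10 genes was 40.6, 27.7 and 22.9 in Col and 102, 78.6 and 93.0 in h3.3kd. It was 17.7, 18.1 and 379 in h2a.z and 130, 382 and 316 in double mutant libraries. All h3.3kd and double mutant libraries lay above all Col libraries, 2 of the h2a.z libraries lay below them, and h2a.z replicate 3 reached the level of the highest double mutant libraries. Even there the 10 genes made up at most 0.0383% of all TPM. The sums rest on 327 to 528 reads in a Col library, 55, 247 and 6200 in the h2a.z libraries and 2130 to 7623 in the double mutant libraries.

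**Figure D1:**
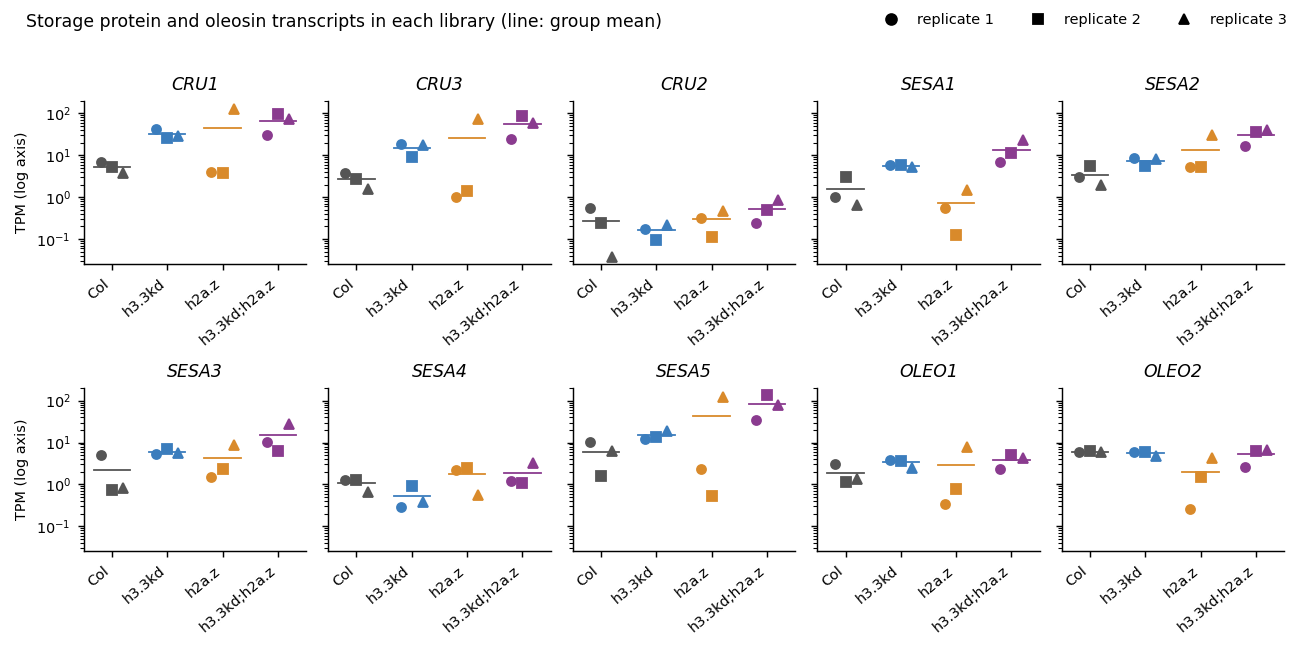
TPM of each of the 10 genes in every library on a log axis, with symbols for the replicate number, colours for the genotype and a line at the group mean. For CRU1 the double mutant libraries sit between 30.9 and 94.6 TPM, above all Col libraries, and h2a.z replicate 3 sits at 125 TPM, far above the other h2a.z libraries.

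CRU1 and CRU3, the cruciferins that were well above 1 TPM, had similar patterns over the libraries. CRU1, which lies on chromosome 5 from 17756238 to 17758336 on the minus strand, had 6.91, 5.16 and 3.87 TPM in Col and 41.3, 26.0 and 29.5 in h3.3kd. It had 4.01, 3.75 and 125 TPM in h2a.z and 30.9, 94.6 and 73.4 in double mutant libraries. Both groups with the knockdown were above Col without overlap, and h2a.z held 1 library within the Col range, 1 just below it and 1 above every other library. On the log2(TPM + 1) scale the difference from Col was 2.40 (SE 0.87) in h3.3kd, 3.3 in the double mutant and 1.22 in h2a.z, and the last became -0.34 (SE 0.34) without h2a.z replicate 3.

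CRU3, another cruciferin gene, lies on chromosome 4 from 14087556 to 14089796 on the plus strand. It had 3.81, 2.72 and 1.59 TPM in Col and 18.6, 9.27 and 17.6 in h3.3kd. In h2a.z it had 1.02, 1.40 and 74.7 TPM, and in the double mutant 23.9, 87.1 and 58.0. The double mutant was above h3.3kd as well as above Col without overlap, while for CRU1 the double mutant and h3.3kd overlapped. Relative to Col the difference was 2.11 (SE 0.96) in h3.3kd and reached 3.82 in the double mutant. In TPM the mean of the double mutant was 20.8 times that of Col for CRU3 and 12.5 times for CRU1. The ratio of CRU1 to CRU3 was 1.81 to 2.44 in Col and 1.09 to 1.29 in the double mutant, so the ranges did not overlap.

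CRU2, whose transcript is 74.8% identical to that of CRU1, was nearly silent in all genotypes. It lies on chromosome 1 from 985751 to 988146 on the plus strand and was the only one of the 10 with a mean below 1 TPM. It had 0.539, 0.238 and 0.0381 TPM in Col and 0.170, 0.0971 and 0.216 in h3.3kd. Its h2a.z libraries had 0.319, 0.112 and 0.469 TPM and its double mutant libraries 0.248, 0.492 and 0.836. These values are 1 to 20 reads a library, all groups overlapped Col, and a difference from Col could not be resolved at this depth. No window of 50 bases from any of the 10 genes occurred elsewhere in the genome, so reads of that length without mismatches would not be shared between them.

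SESA1 to SESA4 stand in a row on the plus strand of chromosome 4, from 13607329 (the start of SESA1) to 13614283 (the end of SESA4), and their transcripts are 82.6% to 90.6% identical. SESA1 had 0.989, 3.01 and 0.649 TPM in Col and 5.88, 5.85 and 5.24 in h3.3kd. The h2a.z libraries had 0.544, 0.127 and 1.47 TPM and the double mutant libraries 6.75, 11.4 and 22.9. The groups with the knockdown were above both others without overlap, and h2a.z replicate 3, at 11 reads, stayed inside the Col range here. SESA1 was the only one of the 10 whose double mutant libraries all exceeded all h2a.z libraries, with a difference of 3.02 (SE 0.38).

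SESA2 had 2.97, 5.43 and 1.99 TPM in Col, 8.48, 5.59 and 8.18 in h3.3kd, against 5.2, 5.11 and 30.2 in h2a.z libraries and 16.5, 35.6 and 41.1 in double mutant libraries. SESA3 had 4.91, 0.742 and 0.831 TPM in Col, 5.47, 7.17 and 5.55 in h3.3kd, against 1.49, 2.33 and 8.79 in h2a.z libraries and 10.5, 6.33 and 27.5 in double mutant libraries. In both, the knockdown groups lay above Col without overlap, with gaps as small as 5.43 to 5.59 TPM for SESA2 and 4.91 to 5.47 for SESA3. SESA4 had 1.3, 1.3 and 0.663 TPM in Col, 0.295, 0.902 and 0.376 in h3.3kd, 2.22, 2.47 and 0.545 in h2a.z libraries and 1.23, 1.07 and 3.20 in double mutant libraries. It rests on 3 to 22 reads a library, overlapped Col in every mutant, and was low rather than high in h2a.z replicate 3. SESA4 made up 12.4% to 16.1% of the TPM of the row in Col and 1.97% to 3.52% in the double mutant.

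On the log2(TPM + 1) scale AT4G27130, 860 bases before SESA1, differed from Col by 0.52 in the double mutant. ATK2, 538 bases after SESA4, differed by -0.22, SESA1, SESA2 and SESA3 by 2.33 to 2.82 and SESA4 by 0.38. This scale understates differences of genes with low levels, so SESA4 and AT4G27130 cannot be ranked by it. From Col to the double mutant, mean TPM went from 1.09 to 1.83 for SESA4 and from 45.5 to 66.0 for AT4G27130. In h2a.z, AT4G27130 differed by 0.45, SESA4 by 0.32 and SESA1 by -0.54.

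SESA5, the remaining albumin gene, lies apart on chromosome 5 from 22238358 to 22239187 on the minus strand. It had 10.2, 1.57 and 6.15 TPM in Col and 12.3, 13.9 and 19.1 in h3.3kd. In h2a.z it had 2.30, 0.539 and 125 TPM, and in the double mutant 35.4, 135 and 77.9. It reached the highest TPM of the 10 genes in any library, and its h2a.z libraries spanned 5, 5 and 1109 reads. The double mutant lay above h3.3kd and Col without overlap, with a difference from Col of 3.63 (SE 1.12). Without h2a.z replicate 3 the difference of h2a.z from Col changed from 0.55 to -1.39.

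The oleosins did not follow the storage proteins to these levels. OLEO1, on chromosome 4 from 12900430 to 12901577 on the plus strand, had 3.03, 1.13 and 1.35 TPM in Col and 3.90, 3.71 and 2.42 in h3.3kd. It had 0.333, 0.780 and 7.76 TPM in h2a.z and 2.36, 4.94 and 4.19 in double mutant libraries. All groups overlapped Col, and h2a.z replicate 3 was the highest library of all. The difference of the double mutant from Col was 0.79 (SE 0.50).

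OLEO2 lies on chromosome 5 from 16173340 to 16174783 on the minus strand. It had 5.98, 6.42 and 5.81 TPM in Col and 5.96, 6.07 and 4.88 in h3.3kd. Its h2a.z libraries had 0.265, 1.49 and 4.29 TPM and its double mutant libraries 2.58, 6.32 and 6.72. All h2a.z libraries were below all Col libraries, including replicate 3, which was the highest of them. On the log2(TPM + 1) scale OLEO2 was the only one of the 10 with h2a.z below Col by more than 2-fold (-1.47, SE 0.38, and -1.99 without h2a.z replicate 3). By mean TPM its ratio to Col was 0.331, and SESA1, at lower levels and overlapping Col, had 0.46. OLEO1 overlaps the gene AT4G25150 by 44 bases and OLEO2 overlaps AT5G40410 by 15 bases, both on the opposite strand. No source used here says whether the counting used strand, so reads there cannot be assigned with certainty.

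**Figure D2:**
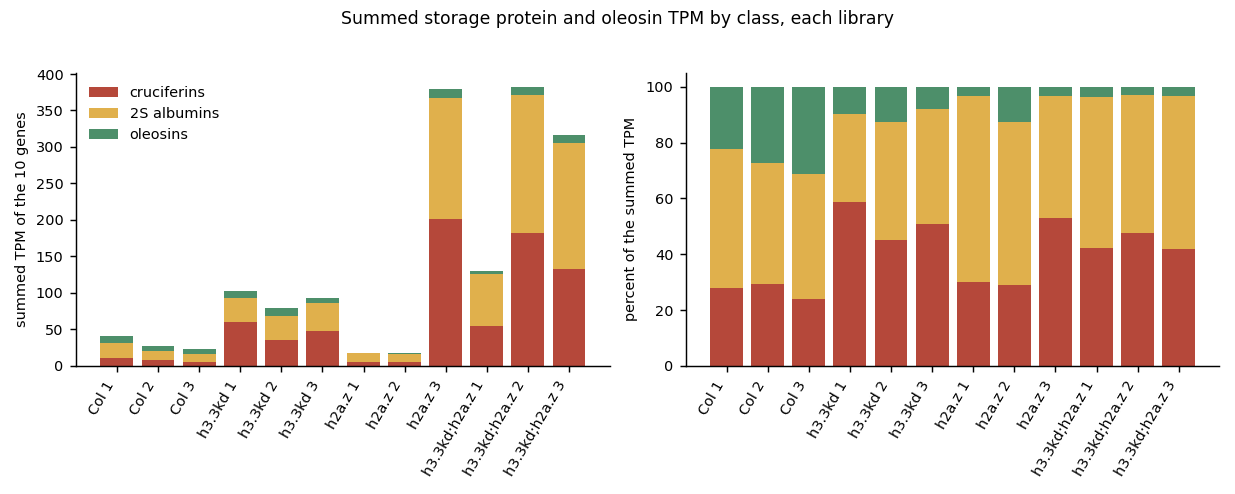
Summed TPM of the 10 genes in each library (left) and the same as percent of the sum (right), stacked as cruciferins, 2S albumins and oleosins. Oleosins make up 22.2% to 31.2% of the sum in Col and 2.94% to 3.79% in the double mutant.

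The makeup of the sum differed as well as its size. Oleosins were 22.2%, 27.3% and 31.2% of the summed TPM in Col and 9.62%, 12.4% and 7.84% in h3.3kd. They were 3.38%, 12.5% and 3.18% in h2a.z and 3.79%, 2.94% and 3.46% in double mutant libraries. Every mutant library had a smaller oleosin share than every Col library. In h2a.z replicates 1 and 2 this came with low oleosin values, which in replicate 1 are 1 read for each oleosin. In the other mutant libraries it came with high storage protein values. Double mutant replicate 1 had low oleosins as well, at 4.945 TPM against 7.162 to 9.012 in Col. The ratio of albumins to cruciferins was 1.48 to 1.87 in Col, 0.540 to 0.945 in h3.3kd and 1.04 to 1.31 in the double mutant, and these ranges did not overlap. In h2a.z it was 2.20 and 2.01 in replicates 1 and 2 and 0.829 in replicate 3.

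**Figure D3:**
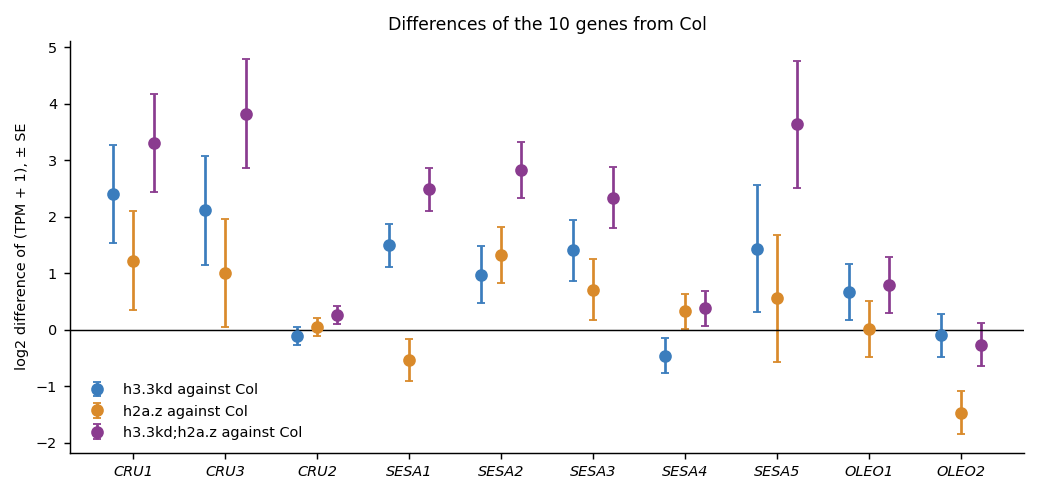
Difference of each mutant from Col in log2(TPM + 1) for each of the 10 genes, with the standard error of the fit over all 12 libraries. CRU3 has the largest value in the double mutant (3.82), while CRU2, SESA4 and OLEO2 lie close to 0 there.

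Counted over the 10 genes on the log2(TPM + 1) scale, 5 were at least 2-fold above Col in h3.3kd and none at least 2-fold below. In h2a.z, 2 were at least 2-fold above Col and 1 below, and 6 were above and none below in double mutant seedlings. Of the 18851 genes tested, 0.668% were at least 2-fold higher in h3.3kd, 3.03% in h2a.z seedlings and 2.01% with both defects, and 2.12% were at least 2-fold lower in h2a.z. In h3.3kd 6 of the 10 had libraries all above Col, as did 15.1% of the genes tested, and in the double mutant also 6, against 22.6%. None had h2a.z libraries all above Col (33.5% of the genes tested) and 1, OLEO2, had them all below (22.1%). The genes were chosen on these comparisons, so nothing is read from their counts. The median difference of the 10 genes from Col was 1.18 in h3.3kd, 0.44 in h2a.z seedlings and 2.41 with both defects, and that of all genes tested was -0.11, 0.06 and -0.07. The sign in h2a.z was set by 1 library: over the 9 genes that passed the filter on low values the median was 0.55 with all libraries and -0.71 without h2a.z replicate 3, with 6 of the 9 below Col. The 3 comparisons share the Col libraries.

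Set against the single mutants on the log2(TPM + 1) scale, the double mutant was at least 2-fold above h2a.z in 7 of the 10 genes. It was at least 2-fold above h3.3kd in 3, and the shares of the genes tested were 1.35% and 1.43%. Ratios of mean TPM differ from these folds. Over h2a.z the ratio was 1.49 for CRU1 and 1.94 for SESA5, both counted. Over h3.3kd it was 2.05 for CRU1, 2.42 for SESA1, 2.44 for SESA3, 3.26 for CRU2 and 3.5 for SESA4, none of them counted. It was above every h3.3kd library in 6 of the 10 (28.5% of the genes tested) and above every h2a.z library in 1 (15.6%). The departure of the double mutant from the sum of both single differences was 1.66 (SE 1.59) for SESA5, 0.71 (SE 1.36) for CRU3 and -0.32 (SE 1.23) for CRU1. Without h2a.z replicate 3 it was 3.59 (SE 0.74), 2.41 (SE 0.55) and 1.24 (SE 0.46), so this quantity hinged on 1 library. Over all genes tested, limma called 17.5% for this departure. For SESA1, which that library did not raise beyond Col, it was 1.53 (SE 0.53) with all libraries and 1.83 (SE 0.53) without it. With any 1 library left out it ranged from 1.1 to 1.91. The h2a.z libraries held only 1, 1 and 11 reads of SESA1, so this value rests on counts near the floor.

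**Figure D4:**
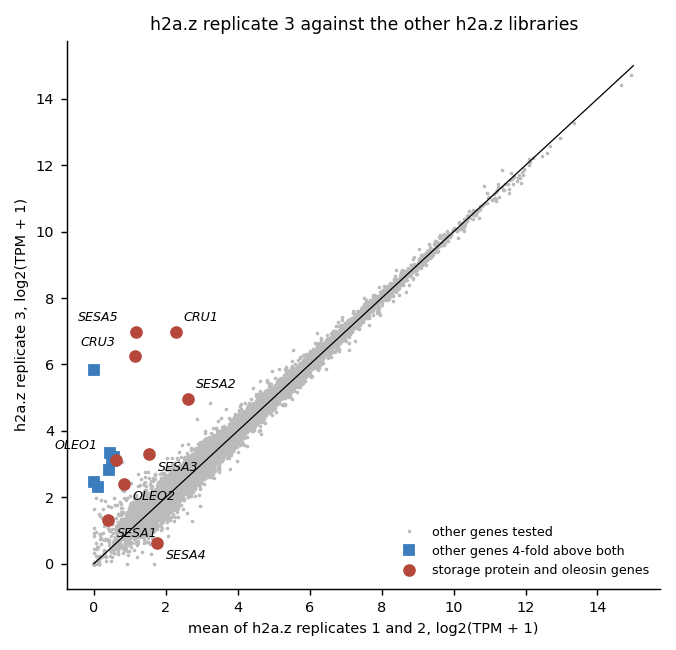
log2(TPM + 1) in h2a.z replicate 3 (vertical) against the mean of h2a.z replicates 1 and 2 (horizontal) for the genes tested, with a line of equality. The 5 storage protein and oleosin genes far above the line are CRU1, CRU3, SESA2, SESA5 and OLEO1, squares mark the 7 other genes at least 4-fold above both libraries, and SESA4 lies below the line.

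The spread within genotypes was large for these genes. Of the 9 that passed the filter on low values, each had a within-genotype standard deviation of 0.47 to 1.85 on the log2 scale. Their choice took account of values varying within genotypes, so this spread too is a description. The h2a.z libraries contributed 88.8% of the within-genotype squares for CRU1 and 22.2% for SESA1.

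In h2a.z replicate 3, 12 of the 18851 genes were at least 4-fold above both other h2a.z libraries, and 5 of them were CRU1, CRU3, SESA2, SESA5 and OLEO1. No other library had more than 2 such genes, and none of those was a storage protein or oleosin gene. This count, its 4-fold limit and its genes were chosen after the values were seen. The other 7 were EM1, M17 and ECP31, which encode late embryogenesis abundant (LEA) or related desiccation proteins, AT1G54870, AT1G68250, LCR67 and AtMT4b. AT1G68250 had 0 TPM in h2a.z replicates 1 and 2 and 56.3 in replicate 3, with 16.6, 25.8 and 20.7 in the double mutant and 0.787 to 3.97 in Col. All 7 were higher in every double mutant library than in h2a.z replicates 1 and 2, and 3 of the 7 were higher there than in every Col library. Replicate 3 had 23810715 reads, within the range of the other libraries.

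Markers of embryo and seed were set beside these sums, 8 genes that all stand in the lists described further on. EM1 and M17 among them are also among the genes named above for being high in h2a.z replicate 3. They summed to 51.0, 39.1 and 36.0 TPM in Col and 54.2, 42.8 and 32.4 in h3.3kd. They summed to 14.0, 16.2 and 47.9 in h2a.z and 23.4, 56.7 and 34.3 in double mutant libraries. In each of the 4 genotypes the library highest in these markers was also the highest in the storage protein and oleosin sum. For h2a.z this match is no outside check, since EM1 and M17 were already known to be high in replicate 3. In every mutant the range of the markers overlapped that of Col. LEC1, a defining regulator of the embryo, was at 0 in every Col and h3.3kd library and reached at most 0.259 TPM elsewhere, and FUS3 reached at most 0.354 TPM. The part of seed or embryo material in these values was not tested.

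Among themselves the 10 genes did not form a single block. Across the 12 libraries, CRU1, CRU3, SESA2, SESA5 and OLEO1 correlated pairwise at r = 0.66 to 0.99 (10 pairs, log2 values) and, as deviations from the genotype means, at 0.76 to 0.99. SESA4 correlated with the other 9 at -0.42 to 0.42, and at -0.65 to 0.16 as deviations. OLEO2 correlated with CRU1 at 0.42 across libraries but at 0.85 as deviations. The points share their libraries and depths, and h2a.z replicate 3 weighs heavily in each value.

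By the likeness of their pattern to the mean pattern of the 9 genes that passed the filter on low values, EM1 came first among all other genes tested (r = 0.903 over 12 libraries, log2 values). EM1, which encodes a LEA protein of the dry seed, had 2.77, 1.10 and 1.31 TPM in Col and 3.67, 10.1 and 7.40 in the double mutant. NET1C (0.884), M10 (0.882), CEP3 (0.882), ECP31 (0.880), ELF4-L2 (0.877), AT3G26770 (0.876), AT1G14642 (0.874), AT1G77750 (0.874) and TTN5 (0.870) followed, with 3 of the 10 (EM1, M10, ECP31) in the LEA and desiccation list. By deviations from genotype means, AT1G20120 (0.927), ECP31 (0.919), AT5G56610 (0.917), CER10 (0.911) and AT1G48490 (0.904) came first, and ECP31 was the only gene of both sets. The 10 from EM1 to TTN5 rest on h2a.z replicate 3: without it, 0 of them were among the 10 most similar. Several of these genes varied little in TPM, such as NET1C between 7.03 and 10.1.

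Related genes were then taken from 8 lists of the seed programme with 102 genes, of which 83 passed the filter on low values and were tested with limma over all 18851 genes. Among the 83, 11 rose and 16 fell in h3.3kd, 13 rose and 28 fell in h2a.z seedlings, and 13 rose and 29 fell with both defects, at an adjusted p below 0.05. That is 32.5%, 49.4% and 50.6% of them, against 35.9%, 47.2% and 51.0% of all genes tested. By direction, 1720 of all genes tested rose and 5042 fell in h3.3kd, and 5449 rose and 3451 fell in h2a.z. With both defects 3826 rose and 5785 fell. The rises and falls of each list below stand beside these counts.

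**Figure D5:**
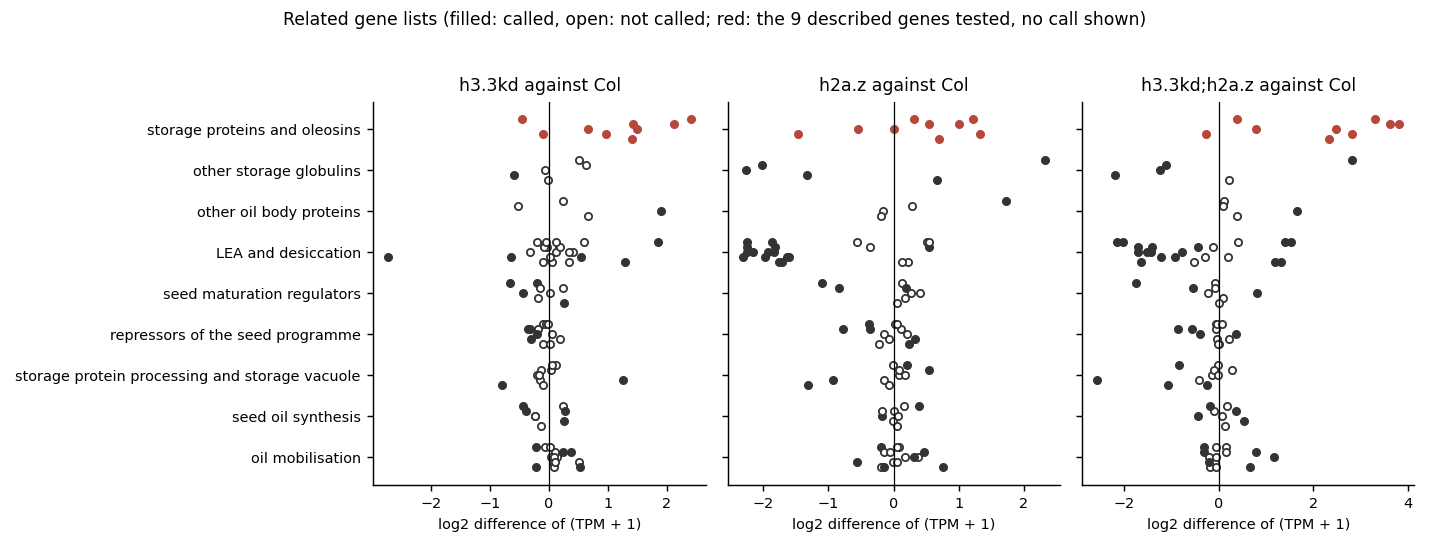
Difference from Col in log2(TPM + 1) of each tested gene of the 8 related lists, in the 3 mutants, filled where called by limma at an adjusted p below 0.05; the red points are the 9 storage protein and oleosin genes tested, without calls. In h2a.z the LEA and desiccation genes lie mostly to the left of 0 (median -1.75) and the red points mostly to the right (7 of 9), a position set by h2a.z replicate 3, without which 6 of the 9 lie to the left.

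Desiccation genes mostly fell where H2A.Z was mutated. Of the 21 LEA and desiccation genes, 14 fell and 1 rose in h2a.z (median difference -1.75), 12 fell and 4 rose in the double mutant (median -0.77), and 2 fell and 3 rose in h3.3kd (median 0.11). The 5 calls in h3.3kd became 3 without Col replicate 1 or 2, h3.3kd replicate 1 or 3, or double mutant replicate 3. LEA4-2, a LEA gene, had 174 TPM on average in Col, 47.2 in h2a.z seedlings and 42.0 in the double mutant (difference -2.03, SE 0.11, adjusted p = 2.72e-09, limma). AT3G53040, another LEA gene, fell from 29.2 to 5.44 TPM in h2a.z (-2.24, SE 0.17, adjusted p = 8.53e-08, limma). The 4 genes that rose in the double mutant were EM1, M10, ECP31 and AT3G22490, with differences of 1.20 to 1.52. The storage protein genes above 2-fold there had 2.33 to 3.82. These sizes cannot be compared directly, because log2(TPM + 1) understates differences of genes with low levels. ECP31 had 0.221 TPM on average in Col and 2.45 in the double mutant. Over the alternatives tried, the differences of ECP31 and AT3G22490 reached 3.42. The call was lost for EM1 without Col replicate 2 or 3 or double mutant replicate 2 or 3 (adjusted p = 0.0524 to 0.0675), and for ECP31 without Col replicate 2 (0.0729) or 3 (0.0807, limma). Nor was EM1 called with a pseudocount of 0.1 (1.96, adjusted p = 0.0957), or ECP31 with no filter on low values (0.0541) or no mean-variance trend (0.051, limma). M17 had 11.9, 10.4 and 9.36 TPM in Col and 0.761, 1.06 and 0.466 in h3.3kd, a fall where CRU1 and CRU3 were high (-2.72, SE 0.46, adjusted p = 0.000381, limma). As deviations from genotype means, 11 of the 21 correlated with the mean pattern of the storage protein and oleosin genes at r = 0.5 or above over 12 libraries, against 7.84% of all other genes tested, a limit chosen after the values were seen. So did 3 of the 5 storage globulins and 3 of the 4 oil body genes tested. The deviations of that mean pattern were largest in h2a.z replicate 3 (1.6). EM1, M17 and ECP31, counted here, were already named for being high in that library. These shares are therefore no outside check, and how far they rest on that library was not tested. Over the 12 libraries without taking deviations, 5 of the 21 LEA and desiccation genes reached r = 0.5 (median r = 0.01), against 9.18% of all others.

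The other storage globulins, of which 5 of 7 were tested, gave 1 fall in h3.3kd (none without Col replicate 1 or h3.3kd replicate 3, and 2 calls without h2a.z replicate 1 or 3), 2 rises and 3 falls in h2a.z, and 1 rise and 3 falls in the double mutant. PAP85, a vicilin-like globulin, had 2.55, 0.440 and 0.740 TPM in Col and 1.89, 1.92 and 2.01 in h3.3kd. Its h2a.z libraries had 5.69, 6.94 and 19.6 TPM and its double mutant libraries 9.06, 24.4 and 11.2. It rose in h2a.z (2.32, SE 0.41, adjusted p = 0.000324) and in the double mutant (2.82, SE 0.41, adjusted p = 4.74e-05, limma), without overlap with Col in either. Unlike the cruciferins, PAP85 was high in all h2a.z libraries. The cupin genes AT2G28490, AT2G18540 and AT4G36700 fell in both, by 1.32 to 2.26 on the log2 scale in h2a.z.

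Other oil body genes gave 1 rise in each mutant and no fall, and 2 calls without h2a.z replicate 3 in each single mutant. OLEO5, an oleosin, had 2.01, 2.56 and 2.15 TPM in Col and 13.1, 11.9 and 8.51 in h3.3kd, and it rose both in h3.3kd (1.89, SE 0.50, adjusted p = 0.00849) and in double mutant seedlings (1.65, SE 0.50, adjusted p = 0.0122, limma). With a pseudocount of 0.1 the differences were larger (2.25 and 1.98) but neither was called (adjusted p = 0.0942 and 0.113, limma), nor was the latter without double mutant replicate 1 (0.0515). OLEO3, another oleosin, had 0.453, 0.835 and 0.104 TPM in Col and 3.05, 5.0 and 3.42 in h2a.z, a rise (1.73, SE 0.19, adjusted p = 4.62e-06, limma) in the genotype in which OLEO2 was low. In the double mutant OLEO3 had 0.676, 0.420 and 0.571 TPM, inside the Col range. Of 11 oil body genes, 10 were in the table and 4 passed the filter.

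Among 8 tested regulators of seed maturation, 1 rose and 3 fell in h3.3kd, and 1 rose and 2 fell in each of h2a.z and the double mutant. In h3.3kd the 4 calls became 1 without Col replicate 1, h3.3kd replicate 2 or h3.3kd replicate 3 and 2 without Col replicate 2, without h3.3kd replicate 1 or with rescaled TPM. ABI3, a known activator of the storage protein genes, had 6.64, 6.21 and 6.81 TPM in Col and 4.62, 3.56 and 3.25 in h3.3kd. It had 2.31, 2.79 and 2.53 TPM in h2a.z and 0.866, 1.14 and 1.84 in double mutant libraries. It fell in all 3, by 0.66 (SE 0.15, adjusted p = 0.00385), 1.09 (SE 0.15, adjusted p = 4.19e-05) and 1.75 (SE 0.15, adjusted p = 3.25e-07, limma) on the log2 scale, and was lowest in the genotype with the highest storage protein levels. ABI5, a bZIP factor of abscisic acid signalling, fell in h2a.z (-0.84) and, with a value of -0.54, in the double mutant, and the latter was not called without double mutant replicate 3 (adjusted p = 0.0529). EEL, a bZIP factor of the seed, rose in the double mutant from 2.23 to 4.80 TPM (0.82, SE 0.17, adjusted p = 0.000843, limma). LEC2, FUS3, LEC1, L1L, ABI4, bZIP67 and AGL67 did not pass the filter on low values.

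Among 12 tested repressors of the seed programme, 4 fell and none rose in h3.3kd, 3 fell and 2 rose in h2a.z, and 3 fell and 1 rose in the double mutant. Falls also outnumbered rises among all genes tested in h3.3kd and the double mutant, but not in h2a.z. SCL15, a GRAS protein that holds back seed genes in seedlings, fell in each, by 0.35, 0.78 and 0.86, as did EMF2, a Polycomb subunit, by 0.32, 0.36 and 0.57. The call for EMF2 in h3.3kd was lost without h3.3kd replicate 1 (adjusted p = 0.0513), which left 2 of the 4 calls there. PKL fell from 16.8 TPM in Col to 12.5 in the double mutant (-0.40, SE 0.07, adjusted p = 0.000424, limma). In h3.3kd its difference of -0.21 was not called with rescaled TPM (-0.10, adjusted p = 0.260) or without any 1 of the 6 libraries compared except Col replicate 3 (0.0633 to 0.150, limma).

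Of 10 genes of storage protein processing and the storage vacuole, 1 rose and 1 fell in h3.3kd, 2 rose and 2 fell in h2a.z, and none rose and 4 fell in the double mutant. Falls outnumbered rises in the double mutant among all genes tested too. BVPE, the vacuolar processing enzyme that cleaves their precursors in seeds, fell in the double mutant from 21.1 to 11.3 TPM (-0.84, SE 0.10, adjusted p = 5.13e-06, limma). DVPE, a related enzyme of the seed coat, fell there from 20.3 to 2.53 TPM (-2.57, SE 0.16, adjusted p = 1.19e-08, limma). TIP3;1 and TIP3;2 are water channels of the storage vacuole. TIP3;1 rose in h3.3kd from 3.63 to 9.98 TPM, and TIP3;2 fell in h3.3kd (-0.79), h2a.z (-1.31) and the double mutant (-1.07). Both h3.3kd calls were lost without single libraries, for TIP3;1 without Col replicate 3 (adjusted p = 0.0657) and without h3.3kd replicate 1 (0.0619), and for TIP3;2 without Col replicate 1 or 2 or h3.3kd replicate 2 or 3 (0.0504 to 0.0973, limma).

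Genes of oil metabolism changed in both directions. Of 8 tested genes of seed oil synthesis, 2 rose and 3 fell in h3.3kd, 1 rose and 1 fell in h2a.z, and 2 rose and 2 fell in the double mutant. The 2 calls in h2a.z became 1 without any 1 Col library, h3.3kd replicate 2 or h2a.z replicate 1. FAD2, the oleate desaturase, rose from 676 to 981 TPM in the double mutant (0.54, SE 0.05, adjusted p = 6.24e-07, limma). Of 15 genes of oil mobilisation, 3 rose and 2 fell in h3.3kd, and 3 rose and 3 fell in each of h2a.z and the double mutant. The 5 calls in h3.3kd became 3 without Col replicate 1, 2 without h3.3kd replicate 1 or 2, and 9 with rescaled TPM. ICL, isocitrate lyase of the glyoxylate cycle, rose from 42.9 to 101 TPM in the double mutant (1.18, SE 0.22, adjusted p = 0.000392, limma), and PCK1, which feeds sugar synthesis from oil, rose in all 3 mutants by 0.53 to 0.75.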

How the data were processed

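The authors deposited 1 table of TPM values for 12 libraries and 23893 genes, used here as deposited. The build TAIR10 and the tools DESeq2 1.26.0, HTSeq 0.11.2, HISAT2 2.1.10 and fastp 0.20.1 are listed without role or order, per the submitters' processing notes. TPM multiplied by the gene span of RefSeq TAIR10.1, introns included, and divided by the value of 1 read gave whole numbers (tolerance 0.02 reads) for 99.98% of values; with exonic lengths, tried first, 19.52% were whole. A read may be a fragment, and the coordinates are those of TAIR10.1.

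limma 3.58.1 in R 4.3.3 was fitted to log2(TPM + 1) of 18851 genes (mean TPM 1 or more), with 4 genotype groups, 8 residual degrees of freedom and trend-dependent variance. Two-sided tests were used with Benjamini-Hochberg adjustment over all genes tested, and fold changes understate low genes. The 6 comparisons set the 3 mutants against Col, set h3.3kd;h2a.z against h2a.z and against h3.3kd, and tested the interaction. When the fit was tested on simulated data at the depths of these libraries, calls of h2a.z against Col included unchanged genes more often than the threshold of 0.05 allows, and calls of h3.3kd against Col did not; calls near the threshold that involve h2a.z are therefore less certain.

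The 10 genes and all lists were chosen with earlier results of these data known. The motifs and the 2-fold, 4-fold and r limits were chosen after values were seen. The text names the 10 genes, the H3.3 and H2A.Z genes, up to 4 called genes with the largest difference per related list and comparison, levels of globulins, oil body genes and regulators, the 10 genes of most similar pattern over libraries and the 5 by deviations. Replicate numbers did not pair libraries. The alternatives tried were another pseudocount, no filter, rescaled TPM, no trend, a replicate block, only the libraries compared, each library left out and, added after seeing the data, voom on recovered reads. Of the listed genes, AT2G25890, MYB118 and VGD1 were not analysed here.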

Additional observations from a re-analysis of the deposited data

Results flagged for a closer look

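The effect of the knockdown differed between the h2a.z background and Col, by the interaction in limma, for 18 of the 83 related genes tested (21.7%, against 17.5% of all genes tested; 14 to 23 with 1 library left out), of which the 13 that the rule for named genes takes follow. The knockdown effect within h2a.z minus that within Col was 3.82 on the log2 scale for M17 and 1.33 for LEA7. It was -1.96 for ECP63, a LEA gene that rose in h3.3kd from 4.10 to 17.5 TPM. It was 1.08 for the globulin AT2G18540 and -1.85 for OLEO3. For the processing genes it was -2.28 for DVPE, -0.95 for BVPE and -0.27 for MAG1. For oil genes it was 0.30 for DGAT3, 0.30 for FAD2, -0.61 for PCK1 and -0.56 for ACX2, and for the Polycomb gene SWN it was 0.47. M17 is among the genes that were high in h2a.z replicate 3.

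For OLEO2, all h3.3kd libraries lay at or below the Col mean. All double mutant libraries lay above the h2a.z mean, a difference of 1.3 between the knockdown effects. That h2a.z mean is taken over libraries at 0.265, 1.49 and 4.29 TPM, the first being 1 read. The double mutant libraries, at 2.58, 6.32 and 6.72 TPM, overlapped them. The difference was not tested, and it ranged from 0.79 (without h2a.z replicate 1) to 1.82 (without h2a.z replicate 3). It was smaller than that of SESA5 (1.66) or SESA1 (1.53), and h3.3kd replicate 2 equalled the Col mean to 2 decimals.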

How the results depend on the processing

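The number of the 10 genes at least 2-fold from Col in h3.3kd was 5 on the log2(TPM + 1) scale. It became 8 with voom on recovered reads, an alternative chosen after seeing the data. In h2a.z it was 3 and became 5 with a pseudocount of 0.1 and 6 with voom. For the double mutant against h3.3kd it was 3 and became 6 and 5. Leaving out single libraries gave 5 to 6 genes in h3.3kd, 2 to 6 in h2a.z, 3 to 6 for the double mutant against h3.3kd and 2 to 6 for the interaction. The difference of CRU1 between h2a.z and Col ranged from -0.34 (without h2a.z replicate 3) to 2.02 (without replicate 2). Related genes called in h3.3kd were 27. With 1 library left out they ranged from 17 (without Col replicate 1, h3.3kd replicate 1 or h3.3kd replicate 3) to 30. They were 31 with rescaled TPM, 33 with voom and 36 with only the 6 libraries compared. Of the 10 genes of most similar pattern, 3 were kept with Spearman's rho, 1 by deviations, and 0 (without h2a.z replicate 3) to 10 with a library left out. Calls over all genes stayed within 1.5 times the main count in every alternative. Of the 78 calls against Col that are the largest of each related list (up to 4 a list), 23 were lost in at least 1 alternative, 12 of these outside the leaving out of libraries. Replicate numbers did not pair libraries (r of same-numbered deviations -0.170 to 0.0766, 18 pairs), and the fit with a replicate block lost 3 of those calls: PKL in h3.3kd (adjusted p = 0.0565), TIP3;1 in h2a.z (0.0576) and VSR1 in the double mutant (0.0516, limma). Depth limits CRU2 and SESA4, with 1 to 22 reads a library, and all genes in h2a.z replicate 1.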
